A study of Mus musculus with 81 samples.

Results

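RLTR44 and RLTR45 are 2 groups of mouse endogenous retroviruses (mERVs) of the ERVK class. Their elements were taken as every locus in the deposited mERV tables whose RepeatMasker species name begins with RLTR44 or RLTR45, which gave 4466 of 970384 loci (0.46%). RLTR44 is made up of the internal region RLTR44-int (653 loci) and 5 kinds of long terminal repeat (LTR), namely RLTR44A (259), RLTR44B (275), RLTR44C (198), RLTR44D (100) and RLTR44E (122). RLTR45 is made up of the LTR species RLTR45 (1545 loci) and the internal region RLTR45-int (1314). All 8 species carry the class label ERVK in the annotation.

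Dams of the OG2 strain, in which enhanced green fluorescent protein (EGFP) is driven in the germline by the Pou5f1 promoter and distal enhancer, drank water with 50 nM tributyltin (TBT) or with the solvent dimethyl sulfoxide (DMSO), both with carboxymethyl cellulose, from before mating through lactation. The sires were not exposed. Descendants of the first (F1) and the third (F3) generation were studied as E18.5 fetuses, and the fetal testes were sorted into P4 and P5, EGFP-positive germline cells that differ in side scatter, and P6, EGFP-negative somatic cells. RNA was sequenced from F1 P4 (5 DMSO, 7 TBT), F1 P5 (4 and 7), F1 P6 (5 and 7) and from the 3 populations of F3 (4 and 5 each), and DNA captured by a methyl-CpG binding domain (MBD) protein from P6 of F1 (3 and 4) and F3 (5 and 7). The labels do not say which libraries came from separate animals, so the p-values measure the spread between these libraries. F1 germline libraries were numbered 43-4, 43-5, 44-1, 44-3 and 48-4 in DMSO and 45-3, 45-4, 45-5, 47-1, 47-3, 47-4 and 47-5 in TBT. Whether libraries with the same first part share a litter is not stated, and each was tested as independent.

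An ERVK element is the remnant of a retrovirus that entered the germline. A complete copy has a pair of LTRs around an internal region that once encoded the viral proteins; the LTR holds the promoter, and the internal region begins with a primer-binding site at which a host tRNA starts reverse transcription. Recombination between the LTRs of a copy leaves a solitary LTR, which can still act as a promoter. In male germ cells of the late fetus, DNA methylation is being re-established and piRNAs guide the silencing of such elements.

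In the RNA libraries, LTR loci as a whole held 2824806 to 6304053 reads per library in F1 and 246520 to 8161548 in F3. The shallow F3 germline libraries P4 TBT 5, P4 TBT 9, P5 DMSO 2 and P5 TBT 5 had 833449, 1187234, 1606422 and 246520 reads, and F3 P5 varied most in how much of its LTR signal lay outside genes, from 6.06% to 31.1%. F1 P6 TBT 7 and 8 also stood apart, as loci outside genes held 6.79% and 6.95% of their LTR signal and no more than 1.82% in the remaining F1 P6 libraries. The sort was checked through LTR loci inside marker genes. Loci in germ cell genes (12 of 16 genes hold a locus) summed to 15220 to 27570 CPM (read counts scaled by library total) in F1 P4, to 11800 to 23560 in F1 P5 and to 27.3 to 81.5 in F1 P6, TBT 7 and 8 included, while in F3 they reached 2535 to 22990 in P4, 856 to 18320 in P5 and 20.9 to 302 in P6. Sertoli cell loci (6 of 8 genes) gave 1153 to 1973 CPM in P6 and at most 206 in germline libraries, and loci of stroma and peritubular cells (4 of 5) gave 411 to 735 and at most 43.7. Loci of Leydig cells (3 of 6), endothelial cells (4 of 4) and macrophages (3 of 3) reached 328, 192 and 76.9 CPM in P6 and 215, 107 and 66.9 in germline libraries, so read through LTR loci these classes overlapped between the sorted populations, and 1 endothelial gene was at 0 in F3 P4.

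To show the sequence where an LTR meets the internal region, 120 bases were read from GRCm38 on the element's strand at 3 RLTR44 copies outside genes and at 1 RLTR45 copy in an intron, all with an LTR next to the internal region. Capitals mark the 18 bases at the place of the retroviral primer-binding site, which start 2 bases into the internal region. Each run was taken from the first TGG at the junction, so the TGG is shared by construction.
RLTR44A near A030012G06Rik, chr9:97275813-97275932, plus strand: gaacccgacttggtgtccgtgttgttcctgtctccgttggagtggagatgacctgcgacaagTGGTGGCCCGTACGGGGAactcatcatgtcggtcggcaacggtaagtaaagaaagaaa
RLTR44B near 1700010I02Rik, chr3:8022618-8022737, minus strand: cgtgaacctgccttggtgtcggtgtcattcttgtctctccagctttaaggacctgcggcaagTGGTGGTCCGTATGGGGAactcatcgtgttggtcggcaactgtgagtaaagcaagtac
RLTR44E near Aldoart2, chr12:55554702-55554821, minus strand: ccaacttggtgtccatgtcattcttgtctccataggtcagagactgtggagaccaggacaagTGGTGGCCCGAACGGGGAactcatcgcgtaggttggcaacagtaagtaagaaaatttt
RLTR45 in an intron of Spats2, chr15:99162422-99162541, minus strand: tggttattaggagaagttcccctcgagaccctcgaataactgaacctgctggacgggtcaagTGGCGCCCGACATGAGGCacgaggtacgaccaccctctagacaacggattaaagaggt
Over these 18 bases the RLTR44A and RLTR44B copies were identical at 16, RLTR44A and RLTR44E at 17 and RLTR44B and RLTR44E at 15. Each of the 3 matched the RLTR45 copy at 10 of 18. The exact RLTR44A run was found in 9 of 650 oriented RLTR44-int loci, and the exact Spats2 run in 1 of 1293 oriented RLTR45-int loci.

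The starts of 2 LTRs are shown, the locus outside genes that led in P4 of both generations and the locus inside a gene that led in P4 and P5. Capitals mark CCAAT, or ATTGG on the other strand, the pentamer bound by the factor NF-Y.
RLTR44A near A030012G06Rik, chr9:97275512-97275751, plus strand: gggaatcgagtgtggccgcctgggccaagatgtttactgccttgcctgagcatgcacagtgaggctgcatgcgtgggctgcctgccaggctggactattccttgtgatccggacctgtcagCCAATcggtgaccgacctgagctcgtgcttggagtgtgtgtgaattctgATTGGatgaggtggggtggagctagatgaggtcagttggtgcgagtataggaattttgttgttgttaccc
RLTR44E in an intron of Rab10, chr12:3261660-3261899, plus strand: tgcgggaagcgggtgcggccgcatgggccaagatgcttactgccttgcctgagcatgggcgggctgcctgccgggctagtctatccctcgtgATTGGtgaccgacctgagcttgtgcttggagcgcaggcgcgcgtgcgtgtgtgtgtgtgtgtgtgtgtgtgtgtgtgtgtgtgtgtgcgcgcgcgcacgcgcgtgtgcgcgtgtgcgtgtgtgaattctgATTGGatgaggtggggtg
The RLTR44A start held 2 such pentamers and 8 CpG, and the RLTR44E start 2 pentamers and 23 CpG. Among LTRs of 300 to 700 bases, CCAAT on either strand was present in 572 of 649 RLTR44 LTRs (88.1%), in 1366 of 1431 RLTR45 LTRs (95.5%) and in 64146 of 100766 other ERVK LTRs (63.7%). TATAAA was less frequent, in 13.7%, 0.839% and 37.6% of the same sets, with RLTR44A at 32.1% (51 of 159). GGGCGG was found in 4.31%, 11.2% and 10.4%. A match is a run of letters in the LTR, read on both strands, and not a binding site.

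Most copies of both groups were incomplete. Pieces on one strand within 100 bases of each other were joined, which gave 47 RLTR44 elements with an internal region between a pair of LTRs (median span 3306 bases), 252 with 1 LTR and an internal region, 489 LTRs alone and 140 internal regions alone. RLTR45 had 16 complete elements (median span 7961 bases), 176 with 1 LTR, 1291 LTRs alone and 561 internal regions alone. The solitary LTR was thus the most common form in both groups. LTRs had median lengths of 355 to 474 bases and 2.02 to 2.95 CpG per 100 bases, RLTR44E being the richest, and internal regions held 1.14 (RLTR44-int) and 0.761 (RLTR45-int) CpG per 100 bases. Copies on the Y chromosome made up 226 of 653 RLTR44-int and 115 of 275 RLTR44B loci, while RLTR44C and RLTR44E had 0 there.

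The elements lay mostly outside genes. Of the 4466 loci, 3584 (80.3%) touched no annotated gene, 743 (16.6%) lay in introns and 139 (3.11%) overlapped exons, compared with 64.5%, 33% and 2.48% of all LTR loci. Of the 690 oriented loci in introns of genes on a single strand, 551 (79.9%) ran opposite to the host gene, and RLTR44-int did so at 103 of 115 (89.6%).

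Over all LTR loci, neighbours had nearly the same value more often in introns than outside genes. Pairs of neighbouring LTR loci in the same intron, within 10 kb and both at 5 CPM or more, differed by at most 5% at 22792 of 23024 pairs (99%) in F1 P4, and still at 98.9% of the pairs whose lengths differed at least 2-fold. Pairs with an RLTR44 or RLTR45 locus did so at 46 of 53 in F1 P4, 33 of 53 in F1 P5 and 49 of 53 in F1 P6. Outside genes the same agreement was seen at 5 of 58 pairs (8.62%) in F1 P4 and 7 of 100 in F1 P5, and in F3 P4 at 87 of 239 (36.4%), 9 of 14 where a pair held an RLTR44 or RLTR45 locus. In F3 such intronic pairs agreed at 30 of 43 in P4, 46 of 57 in P6 and 19 of 48 (39.6%) in P5, where all intronic pairs did at 80.9%. Where neighbours agree in this way, an intronic element and the RNA of its host gene cannot be told apart. What made neighbours agree was not tested, and loci outside genes are given separately in what follows.

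The locus with the highest mean in both germline populations of both generations was such a case. RLTR44E in an intron of Rab10, a small GTPase of membrane traffic, had 135 CPM in F1 P4, where the median of the 12 other LTR loci in Rab10 was 139, and 90.8 in F1 P5 against 93.8. RLTR45-int loci in Spats2, a gene named for its expression in spermatogenesis, had 59.7 and 59.6 CPM in F1 P4, where the highest other LTR locus of that gene had 59.5. RLTR44A in Erp44, a chaperone of the early secretory pathway, was among the leading loci of P6, at 50.5 ± 7.78 CPM in F1 P6 (SD, n = 12), and the other 17 LTR loci of Erp44 ranged up to 56.9. The RLTR45-int fragment of 165 bases in exons of the lincRNAs 1700030F04Rik and Gm7292 (chr6:117716686-117716850) led P6 with 73.9 ± 19.2 CPM in F1 (SD, n = 12) and 101.3 CPM in F3 (79.97 to 120.4 over 9 libraries).

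Outside genes, the internal regions were most abundant in P5. RLTR44-int outside genes had 72.6 ± 19.0 CPM in F1 P4 (SD, n = 12), 400 ± 120 in F1 P5 (n = 11) and 17.0 ± 29.3 in F1 P6 (n = 12), and the last value rested on TBT 7 and 8, which had 71.6 and 86.6 CPM while the other 10 libraries had 4.63 ± 3.24 (SD) and at most 8.65. TBT 7 and 8 thus lay within the range of F1 P4, which ranged from 51.7 to 110 CPM. In F3 the values were 137 ± 60.3, 815 ± 459 and 3.71 ± 4.48 CPM (SD, n = 9 each), and the P6 mean was 2.35 ± 2.00 without DMSO 4, which had 14.6 CPM. The germline and somatic tables, and the F1 and F3 tables, were scaled separately, so these levels stand side by side without a test, and fewer cells that make an RNA and less of it per cell cannot be told apart in bulk samples.

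RLTR45-int outside genes followed the same order. It had 40.6 ± 6.93 CPM in F1 P4 (SD, n = 12), 198 ± 47.4 in F1 P5 (n = 11) and 32.9 ± 46.6 in F1 P6 (n = 12), the last falling to 13.1 ± 5.91 (n = 10) without TBT 7 and 8, which had 133 and 131. RLTR45 as a whole outside genes had 239.9 and 253.9 CPM in those libraries, above every F1 P4 library (104.5 to 183.5). In F3 RLTR45-int had 104 ± 74.2 CPM in P4, 491 ± 271 in P5 and 17.3 ± 7.49 in P6 (n = 9 each). Per kb of sequence, the LTRs of RLTR44 were the most abundant part, with RLTR44E at 1.71 CPM per kb in F1 P4 and 3.15 in F1 P5, ahead of RLTR44-int (0.162 and 0.893) and RLTR45-int (0.0536 and 0.261).

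**Figure D1:**
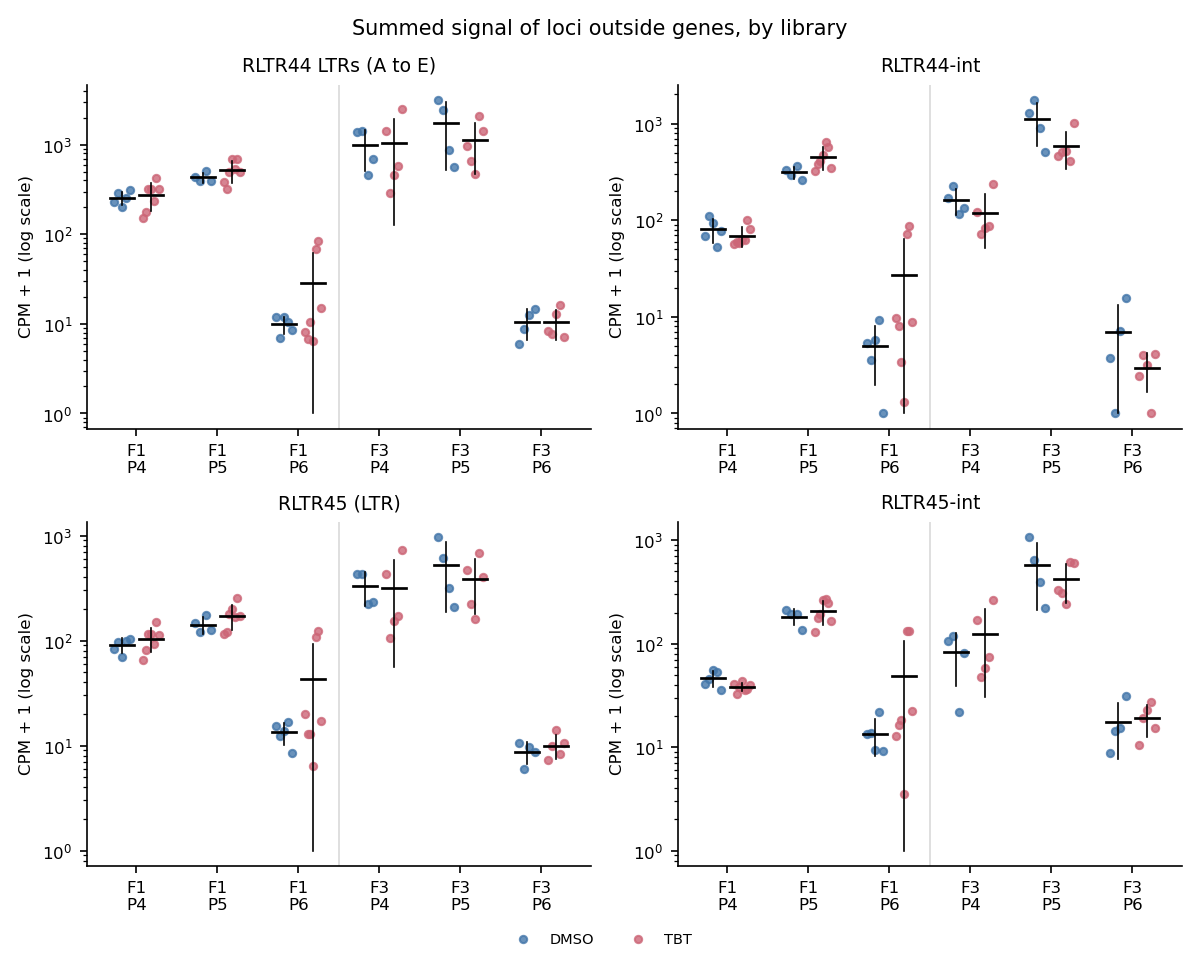
Summed signal outside genes of the RLTR44 LTRs, RLTR44-int, RLTR45 and RLTR45-int in each RNA library, as CPM + 1 on a log axis, by generation and cell population, with DMSO in blue, TBT in red, black lines for the group mean and bars for 1 SD. RLTR44-int lies between 51.7 and 110 CPM in F1 P4 and between 258 and 649 in F1 P5, and the pair of high points in F1 P6 is TBT 7 and 8.

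The signal outside genes came from few loci. In F1 P4, 132 of the 513 RLTR44-int loci outside genes had any signal, and 4 loci held 50% of it. In F1 P5, 248 had signal and 10 loci held 50%, and in F3 P4 and P5 the numbers were 2 and 14 loci. RLTR45-int was spread more widely, with 23 of its 1054 loci holding 50% in F1 P4 and 57 in F1 P5.

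The leading loci outside genes in P4 were LTRs. RLTR44A near A030012G06Rik (chr9:97275512-97275872, plus strand) had 27.1 ± 8.32 CPM in F1 P4 (SD, n = 12), 27.0 ± 8.07 in F1 P5 (n = 11) and 0.176 ± 0.389 in F1 P6 (n = 12). RLTR44B near Gm47095 (chr9:121551409-121551800, minus strand), a solitary LTR, had 20.3 ± 9.86 and 22.2 ± 8.92 CPM in F1 P4 and P5 and 0.499 ± 0.868 in F1 P6. RLTR44A over an exon of the lincRNA 1700054O05Rik (chr10:35485227-35485577) was at 28.2 and 26.9 CPM in F1 P4 and P5 and at 82.3 and 52.0 in F3 P4 and P5, and at 0 in all 9 F3 P6 libraries. In F1 P5 the leading loci outside genes were internal regions, RLTR44-int near Aldoart2 (chr12:55552212-55554761) at 45.3 ± 18.9 CPM in F1 P5 (n = 11) and near 1700010I02Rik (chr3:8020058-8022677) at 40.8 ± 20.01, and both were at 0 in all 12 F1 P6 libraries. In F3 P5 the LTR near A030012G06Rik (71.3 CPM) and the internal region near Aldoart2 (68.2 CPM) led.

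In P6 no RLTR44 or RLTR45 locus outside genes was abundant. The leading ones were RLTR44C near Vmn2r11 (chr5:109060556-109060990), with 2.00 ± 1.75 CPM in F1 (n = 12) and 3.60 ± 2.68 in F3 (n = 9), RLTR45-int near Gm9238 (chr12:115545765-115546007), with 1.60 ± 0.856 in F1, and RLTR45-int near Lyn (chr4:3815208-3817216), with 5.39 ± 3.15 in F3.

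In F1 P4 and P5 the LTRs of complete RLTR44 elements had a higher mean per kb than the LTRs of partial forms, and their internal regions a higher mean than other internal regions. Outside genes in F1 P4, the LTRs of elements with an internal region between a pair of LTRs had 2.40 ± 0.666 CPM per kb and their internal regions 0.751 ± 0.206 (SD, n = 12), solitary LTRs had 1.36 ± 0.402, and internal regions without an LTR 0.00661 ± 0.00567. The elements with 1 LTR and an internal region, which hold the most RLTR44 loci, had 0.313 ± 0.0988 in their LTRs and 0.176 ± 0.0631 in their internal regions. In F1 P5 the first 4 values were 4.15 ± 0.867, 3.71 ± 1.33, 2.34 ± 0.644 and 0.0568 ± 0.0227 (n = 11), and elements with 1 LTR had 0.844 ± 0.199 and 1.16 ± 0.342. In F3 P5 the LTRs of complete elements had 10.4 ± 6.28 CPM per kb and solitary LTRs 7.10 ± 4.93 (n = 9), so these overlapped. In P4 the internal regions of complete elements thus stood well under their LTRs, while in P5 the levels per kb of LTR and internal region overlapped. RLTR45 showed no such order: its complete elements had 0.0556 ± 0.0633 CPM per kb in their LTRs in F1 P4, and solitary RLTR45 LTRs had 0.166 ± 0.0422.

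The difference between P4 and P5, 2 germline populations that the sort separates by side scatter, was tested with limma on log2 values within each generation and exposure. Summed over all its loci, RLTR44-int was higher in P5 in each of the 4 comparisons, by 1.20 ± 0.13 on the log2 scale in F1 DMSO (SE; limma adjusted p = 3.864e-07), 1.57 ± 0.10 in F1 TBT (adjusted p = 2.434e-11), 1.93 ± 0.38 in F3 DMSO (adjusted p = 0.00834) and 1.49 ± 0.34 in F3 TBT (adjusted p = 0.03828). The F3 TBT call was lost in 12 of 18 fits that left out 1 library (limma adjusted p = 0.05137 to 0.1427), and the F3 DMSO call without DMSO P5 2 (adjusted p = 0.06134). Without the shallow libraries the F3 values were 1.74 and 1.81 (limma adjusted p = 0.000695 and 0.00111). RLTR45-int was higher by 0.27 ± 0.07 and 0.29 ± 0.06 in F1 DMSO and TBT (limma adjusted p = 0.00947 and 0.000234), and in F3 the differences of 1.26 ± 0.35 and 0.60 ± 0.31 did not pass (adjusted p = 0.0926 and 1).

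Of the 8 species totals, 5 rose in P5 in F1 DMSO, where 13.1% of all LTR species rose, and 6 in F1 TBT, where 20.8% did. In both, RLTR44B (0.69 and 0.79), RLTR44C (0.52 and 0.65) and RLTR44D (0.74 and 0.57) rose with the internal regions, and RLTR44A passed in TBT only (0.18 and 0.41), though the difference between the exposures did not pass its own test (limma adjusted p = 0.997). RLTR44E differed by −0.08 and 0.04 and RLTR45 by 0.03 and 0.11. With every library scaled to the same total, 6 of 8 rose in F1 DMSO and 8 of 8 in F1 TBT, beside 30.1% and 45.3% of all species. In F3, 1 total (RLTR44-int) rose in each exposure, beside 1.21% of all species in DMSO and 1.21% in TBT. Among all species RLTR44-int ranked 6 of 664 in both F1 comparisons and 15 and 23 of 662 in F3. Over loci outside genes only, it ranked 61 and 34 of 589 in F1 DMSO and TBT and 90 and 74 of 603 in F3.

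Over loci outside genes the differences of both internal regions were larger. RLTR44-int had 67.9, 110, 92.4, 51.7 and 75.5 CPM in the 5 DMSO-F1 P4 libraries and 329, 296, 365 and 258 in the 4 DMSO-F1 P5 libraries. The P5 libraries all lay above the P4 libraries. The difference was 2.01 ± 0.21 (SE; limma adjusted p = 1.697e-08) in DMSO, and in TBT, where P4 ranged from 55.3 to 99.2 CPM and P5 from 321 to 649, it was 2.72 ± 0.17 (adjusted p = 1.241e-14). In F3 DMSO the P4 libraries had 169, 225, 115 and 134 CPM and the P5 libraries 1281, 1744, 899 and 507, a difference of 2.69 ± 0.50 (limma adjusted p = 0.000565). In F3 TBT the values were 119, 70.8, 81.4, 85.2 and 234 in P4 and 457, 508, 522, 413 and 1002 in P5 (2.37 ± 0.45, limma adjusted p = 0.000498). RLTR44-int outside genes did not overlap between P4 and P5 in any of the 4 comparisons.

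RLTR45-int outside genes had 40.3, 44.6, 54.8, 52.0 and 35.0 CPM in DMSO-F1 P4 and 209, 194, 191 and 136 in DMSO-F1 P5. No P5 library lay as low as a P4 library there, whereas in F3 TBT the groups overlapped, as P4 TBT 9 had 265 CPM and P5 TBT 7 had 242. The log2 differences were 2.00 ± 0.20 (SE; limma adjusted p = 9.495e-09) in F1 DMSO, 2.42 ± 0.16 (3.288e-14) in F1 TBT, 2.86 ± 0.61 (0.00172) in F3 DMSO and 1.99 ± 0.55 (0.0146) in F3 TBT. The remaining 6 totals rose by 0.59 to 0.84 in F1 DMSO and by 0.72 to 1.04 in F1 TBT and did not pass in F3, where they ranged from 0.36 to 0.87 and from 0.13 to 0.64.

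These counts stand on a high background. Outside genes 8 of 8 totals rose in both F1 comparisons, while 75.6% of all LTR species rose in F1 DMSO and 92.7% in F1 TBT, and 2 of 8 rose in each F3 comparison, against 33.7% in DMSO and 17.2% in TBT. The median change of all LTR species outside genes was 1.12, 1.46, 1.58 and 1.19 in F1 DMSO, F1 TBT, F3 DMSO and F3 TBT, and that of the 8 RLTR44 and RLTR45 species was lower, at 0.81, 1.03, 0.76 and 0.46. Signal outside genes took 3.84% to 7.34% of all LTR signal in F1 P5 and 1.83% to 2.51% in F1 P4, and its part in these differences was not tested. Of 18 other ERVK internal regions tested (IAP, MMERVK, ETn and related species), 17 rose and 0 fell outside genes in F1 DMSO, with a median of 1.94, and 18 rose in F1 TBT with a median of 2.40. The changes of RLTR44-int (2.01 and 2.72) and RLTR45-int (2.00 and 2.42) outside genes lay near these medians. Over all loci the 18 had medians of 0.22 and 0.41, against 1.20 and 1.57 for RLTR44-int.

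Marker loci moved between P4 and P5 as well. The summed level of loci in germ cell genes had a median of 19640 CPM in F1 P4 and 14070 in F1 P5, and of 17220 and 10980 in F3. Sertoli cell loci had medians of 27.7 CPM (9.99 to 113) in F1 P4 and 50.8 (29.9 to 206) in F1 P5, and 11.7 (0 to 30.8) and 47.9 (0 to 78.9) in F3. Endothelial loci went from 31.8 to 59.2 CPM in F1 and from 27.4 to 55.9 in F3, whereas loci of stroma and peritubular cells had 21.4 and 18.1 in F1 and 22.9 and 17.3 in F3. Leydig cell loci had 16.9 and 25.7 CPM in F1 and 8.96 and 8.84 in F3, and macrophage loci 9.22 and 15.9 in F1 and 8.15 and 10.8 in F3. The ranges of each list overlapped between P4 and P5 in both generations, and the part of these levels in the P5 differences was not tested.

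As a share of the LTR signal outside genes, RLTR44-int took 0.212% to 0.461% in F1 P4 and 0.636% to 1.002% in F1 P5, without overlap, and it covers 0.207% of the LTR length outside genes. In F3 the ranges overlapped, 0.185% to 0.370% in P4 and 0.260% to 0.910% in P5. RLTR45-int took 0.132% to 0.259% in F1 P4 and 0.301% to 0.437% in F1 P5, close to its share of length of 0.35% in P5 and under it in P4. The RLTR44 LTRs took 0.820% to 1.56% in F1 P4 and 0.681% to 1.06% in F1 P5, above their 0.111% of length in both, and were at most 0.120% in F1 P6.

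**Figure D2:**
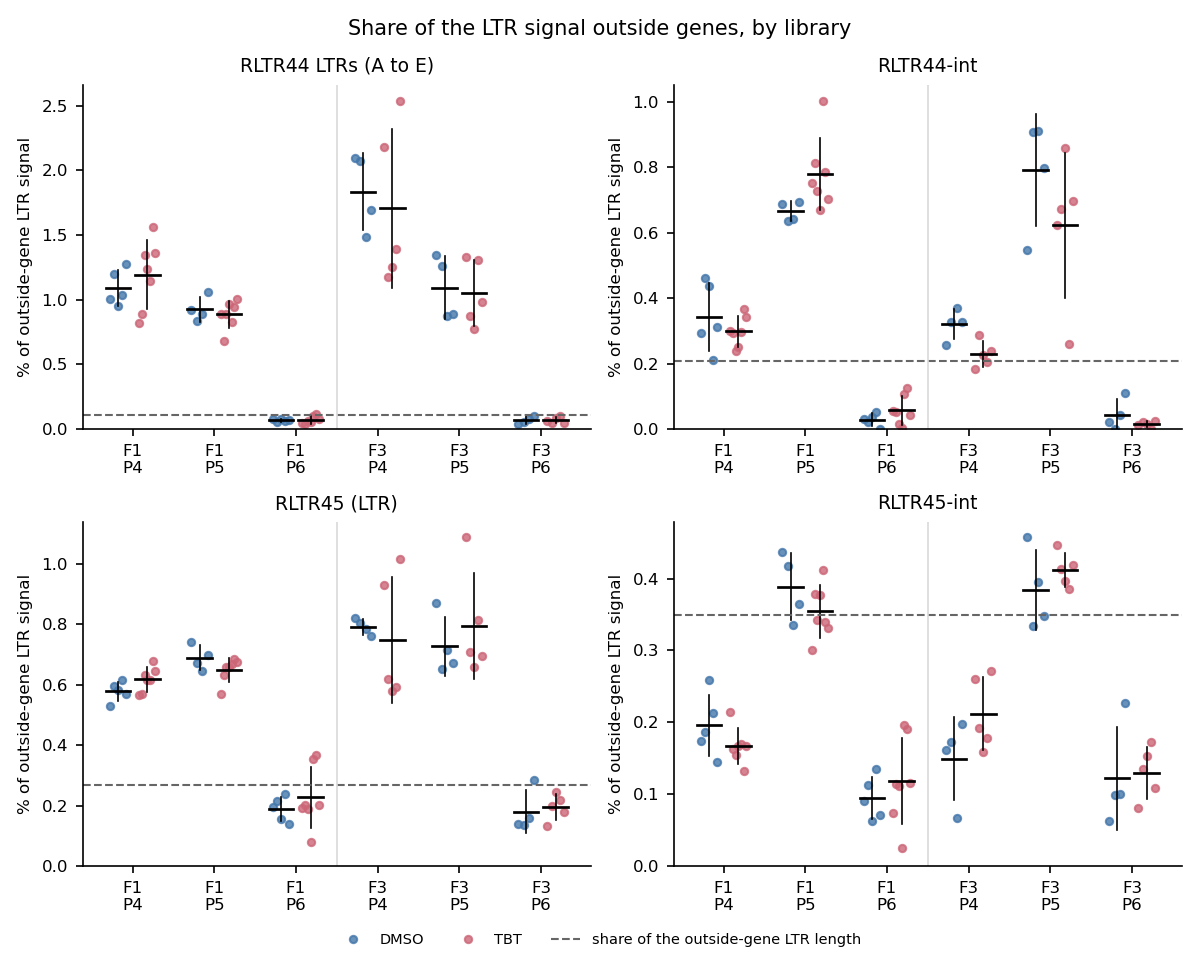
Share of the LTR signal outside genes, in percent, taken by the RLTR44 LTRs, RLTR44-int, RLTR45 and RLTR45-int in each RNA library, by generation and cell population, with DMSO in blue, TBT in red, black lines for means, bars for 1 SD and a dashed line at the share of the outside-gene LTR length. RLTR44-int does not overlap between P4 (at most 0.461%) and P5 (at least 0.636%) in F1, while the RLTR44 LTRs overlap.

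Single loci were tested in the same way. Of 342 RLTR44 and RLTR45 loci with enough signal to test in F1, 71 rose and 10 fell in P5 in DMSO, where 7.53% of all tested loci rose and 5.08% fell, and 115 rose and 19 fell in TBT, where 13.9% rose and 15.3% fell. With every library scaled to the same total, 80 rose and 5 fell in DMSO and 130 rose and 11 fell in TBT, while over all loci the split went from 7631 higher and 5155 lower to 9098 and 2537 in DMSO and from 14054 and 15548 to 17160 and 7592 in TBT. A locus that passed the filter only through its P5 signal had to differ, so the tested loci do not stand for all 4466. Outside genes RLTR44-int near 1500015O10Rik and near Chd1l entered in this way. The counts here include such loci, whose number was not determined, and are not given as support. Outside genes 52 rose and 1 fell of 138 in DMSO (18.4% of all loci outside genes rose) and 75 rose and 1 fell in TBT (37.4% rose), whereas in introns 17 rose and 8 fell of 175 in DMSO (6.95% and 5.34% of all intronic loci) and 30 rose and 16 fell in TBT (12.4% and 16.2%). RLTR44-int outside genes rose at 21 of 37 tested loci in DMSO and 34 of 37 in TBT, and RLTR45-int at 13 of 19 and 12 of 19. The RLTR44 LTRs rose at 14 of 71 and 27 of 71, and RLTR45 at 4 of 11 and 2 of 11.

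In F3, 604 loci were tested and 1 rose in each exposure, against 0.00102% of all loci in DMSO and 0.00306% in TBT, and outside genes the shares of all loci were 0.00745% and 0.0224%. The single locus called, in both exposures, was RLTR44-int near Rps19-ps9 (chr6:87960452-87962385, minus strand). It was at 0 in all 9 F3 P4 libraries and had 32.5, 62.6, 21.6 and 17.8 CPM in the DMSO and 15.3, 12.8, 28.3, 5.61 and 25.2 CPM in the TBT libraries of F3 P5. Set against a floor of 3 reads over the P4 group, it was at least 143-fold higher in P5 in DMSO and at least 73-fold higher in TBT. It entered the test only through its P5 reads, so its p is not given as support, and its calls were lost without the filter on low values and in 12 and 13 of 18 fits that left out a library. In F1 it rose by 5.77 in TBT (limma adjusted p = 6.449e-09), and in DMSO by 1.98 without passing (adjusted p = 0.0729).

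**Figure D3:**
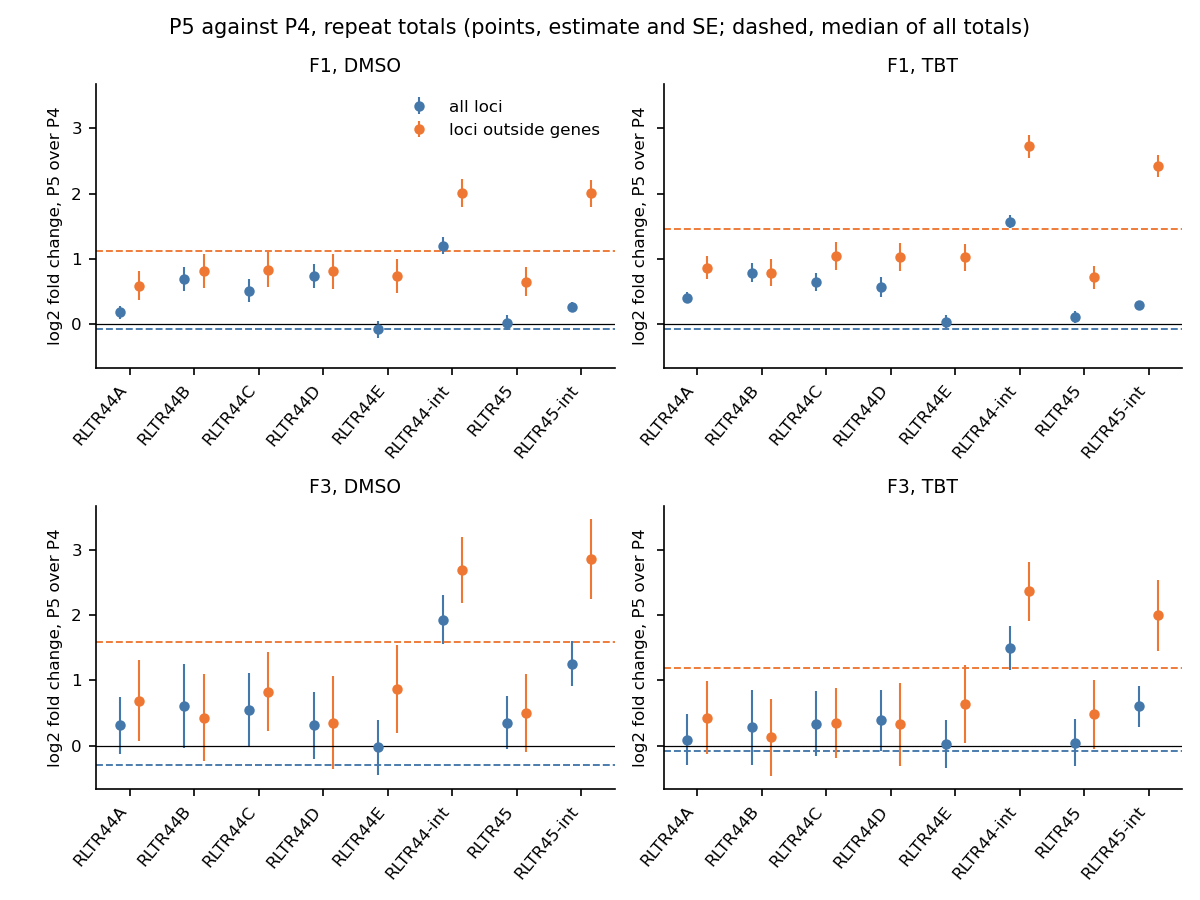
Log2 difference between P5 and P4 for the 8 species totals, over all loci and over loci outside genes, in F1 and F3 and in DMSO and TBT, with all loci in blue, loci outside genes in orange, bars for the standard error and dashed lines for the median of all LTR species. RLTR44-int and RLTR45-int lie highest outside genes, at 2.01 and 2.00 in F1 DMSO, and RLTR44E and RLTR45 lie near 0 over all loci in F1.

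The 3 loci with the largest rise in DMSO-F1 were all RLTR44-int. Their mean over the 12 F1 P4 libraries was 0.5 to 3.58 reads and they entered the test only through P5, so their values are given without a p. The locus near 1500015O10Rik (chr1:43688778-43690299, minus strand), part of a complete element, had 0, 0.534, 0, 0.493 and 0 CPM in the P4 and 9.57, 13.8, 27.2 and 7.90 in the P5 libraries of DMSO-F1. It went from near 0 to a clear signal in each P5 library, with log2 differences of 5.17 ± 0.57 (SE) in DMSO and 5.39 ± 0.45 in TBT. The locus in the lincRNA Gm49171, on the opposite strand (chr14:74308125-74310007), had 0, 1.07, 0, 0 and 0 CPM in P4 and 16.5, 15.9, 47.9 and 7.74 in P5 (5.79 in DMSO and 5.77 in TBT). The highest of the 176 other LTR loci of this long gene had 1.296 CPM in F1 P5, so here the element stood out from its host. The third, in Gm12861 and Gm12865 (chr4:118995440-118996413), had 0, 0.534, 4.85, 1.23 and 0 CPM in P4 and 29.4, 26.1, 41.3 and 9.25 in P5 (4.91 in DMSO and 6.41 in TBT). Its host's 19 other LTR loci had at most 1.23 CPM in F1 P5.

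The most abundant internal regions of P5 rose from a level that P4 already had. RLTR44-int near Aldoart2, a retrogene of a glycolytic enzyme, had 0.516, 20.8, 19.6, 13.6 and 10.1 CPM in DMSO-F1 P4 and 41.1, 28.7, 21.7 and 25.9 in P5. The groups came close without overlapping, and the difference was 1.76 ± 0.54 (SE; limma adjusted p = 0.0287) in DMSO and 2.85 in TBT (8.857e-06). Near 1700010I02Rik the differences were 2.51 and 2.26 (limma adjusted p = 0.00851 and 0.00117).

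The loci with the largest fall in DMSO-F1 were RLTR45 LTRs within genes. RLTR45 in an intron of Eipr1 (chr12:28814399-28814936), a gene of endosome-to-Golgi transport, had 9.29, 8.01, 6.70, 7.64 and 6.404 CPM in P4 and 4.78, 3.03, 3.10 and 2.86 in P5 (−1.11 ± 0.23, limma adjusted p = 0.00148). It equalled the median of the 48 other LTR loci in Eipr1 (7.25 CPM in F1 P4), and in TBT its difference was −0.23 (adjusted p = 0.375). Loci in Rnf180 (chr13:105235586-105236012) and over an exon of Gm44618 (chr7:28681202-28681713) fell by 0.98 and 1.296 in DMSO (limma adjusted p = 0.0154 and 0.0155) and had differences of −0.07 and −0.21 in TBT. Leaving out DMSO P5 44-1 (for Rnf180) or DMSO P5 43-5 (for Gm44618) took the adjusted p to 0.1005 and 0.05455.

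The parts of single elements differed between P4 and P5. In the complete element near A030012G06Rik (chr9:97275512-97278822, plus strand), the rise in P5 lay in the internal region. There the first LTR had 27.1 CPM in F1 P4 and 27.0 in F1 P5, and its difference did not pass in either exposure (−0.15 and 0.09). The 549 bases after it had 15.9 ± 5.34 and 20.3 ± 5.48 CPM, and the next 1995 bases had 0.125 ± 0.255 in P4 (n = 12) and 7.93 ± 5.32 in P5 (n = 11). The last LTR had 5.51 ± 2.18 CPM in P4 and 6.77 ± 1.95 in P5. In P5 the long piece had signal in all 11 libraries (2.39 to 18.1 CPM). In F3 the first LTR, the first internal piece and the long piece had 110, 66.1 and 0.371 CPM in P4 and 71.3, 57.4 and 7.23 in P5. In the element near 1500015O10Rik the first piece of the internal region (1522 bases) had 0.372 ± 0.847 and 16.5 ± 6.39 CPM in F1 P4 and P5, and the second (928 bases) 0 in all 12 P4 libraries and 6.36 ± 3.44 in P5. Here both LTRs had more signal in P5 too, 0.416 ± 0.558 and 2.495 ± 1.41 CPM in the first and 0 and 2.38 ± 1.37 in the last.

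**Figure D4:**
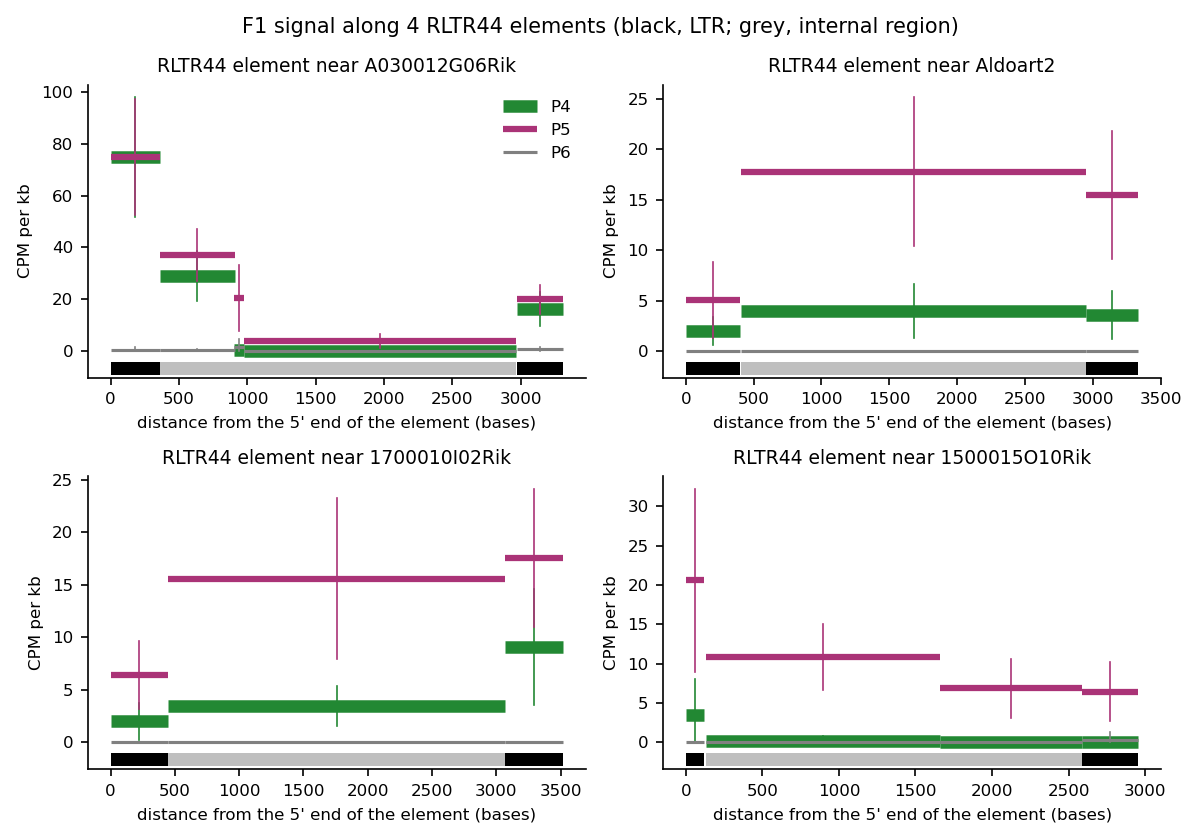
Mean CPM per kb along 4 complete RLTR44 elements in F1, by distance from the element's start, for P4 (green), P5 (purple) and P6 (grey), with bars for 1 SD over libraries and boxes for LTRs (black) and internal pieces (light grey). Near A030012G06Rik the first LTR is level between P4 and P5 (27.1 and 27.0 CPM), and the long internal piece is seen in P5 (7.93 CPM) and hardly in P4 (0.125 CPM).

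Between TBT and DMSO, whether an RLTR44 or RLTR45 locus was called depended on the test and on the filter. With limma and a mean of at least 5 reads, 0 of 236 tested loci passed in F1 P4 (background 0%), 0 of 535 in F1 P5 (0.0106%), 0 of 88 in F1 P6 (0.00341%), and in F3 0 of 429 in P4 (0%), 0 of 663 in P5 (0%) and 0 of 127 in P6 (0.0343%). At an unadjusted p under 0.05 there were 20, 91, 6, 19, 15 and 11, or 8.47%, 17%, 6.82%, 4.43%, 2.26% and 8.66% of those tested, beside 7.09%, 6.89%, 3.68%, 1.65%, 1.01% and 7.96% of all loci. Without the filter limma called 28 of 2689 loci in F1 P5 (1.04%), all higher in TBT, beside 0.202% of all loci. The edgeR quasi-likelihood test on the recovered reads, with the filter, also gave 0 in each, beside 0.00109%, 0.00327%, 0.00341%, 0%, 0% and 0.062% of all loci.

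The edgeR likelihood ratio test, which is the one named in the methods of the study, gave 0, 10, 0, 0, 22 and 2 in the same order. Its background was 0.0939%, 0.317%, 0.0523%, 0.00347%, 3.15% and 0.338% of all loci, and the 10 of F1 P5 were 1.87% and the 22 of F3 P5 3.32% of the loci tested there. In F1 P5 all 10 were higher in TBT, and 8 lay outside genes. At 8 of the 10 the DMSO mean was under the minimum of 5 reads, so these were tested only through the TBT libraries and had to differ, and neither their p nor the count is given as support. The same held at all 22 of F3 P5 for the group in which each was lower. The 10 of F1 P5 were low, at means of 0 to 2.19 CPM in DMSO and 1.47 to 13.2 in TBT, and at 4 of them the groups did not overlap. The lowest p was at RLTR44-int near Chd1l, which is described further on, and the others, named after their values were seen, included RLTR44C near Olfr316 (chr11:58751532-58751852), at 0 to 2.15 CPM in DMSO and 2.295 to 5.48 in TBT, and RLTR44-int near Sema6d (chr2:123911592-123911788), at 0.478 to 1.18 and 1.59 to 13.7. In F3 P5, 17 were lower and 5 higher in TBT. A single library held over 50% of the group's signal at 17 of the 17, among them 12 led by the shallow library DMSO 2, and at 4 of the 5. Of the pair called in F3 P6, RLTR44-int near Chd1l had 10.8 CPM in DMSO 4 and 0 in the other 8 libraries, and the RLTR45-int fragment at chr6:117716343-117716507 is given with the exons it lies in. A p that misses the threshold does not show that the loci were alike.

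In F1 P5, 80 of the 91 loci at an unadjusted p under 0.05 (87.9%) were higher in TBT, beside 67.4% of the 8421 loci at that p over all. The median over the 535 tested loci was 0.21 on the log2 scale, compared with 0.03 over all loci tested. A locus that passed the filter only through its TBT reads had to be higher there. Such loci were not counted apart, so these values are not given as support. Outside genes the 277 tested loci had a median of 0.32 and all loci there 0.37, and in introns the medians were 0.13 over 217 loci and 0.01. In the other 5 comparisons the medians were 0.02, −0.07, −0.29, −0.38 and 0.00 (P4 and P6 of F1, then the 3 of F3), beside 0.04, −0.04, −0.69, 0.15 and 0.02 over all loci tested. Without the shallow F3 libraries the medians were −0.53 in P4 and −0.05 in P5, beside 0.38 and 0.43 over all loci, and without TBT 7 and 8 the F1 P6 median was −0.04, beside −0.02, so the medians of all loci in F3 P4 changed sign with those libraries.

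No species total passed either, and 0% of all LTR species did in each of the 6 comparisons (limma, loci of both kinds summed). At an unadjusted p under 0.05 there was 1 of the 8 totals in F1 P5 (beside 4.79% of all species), 1 in F3 P6 (beside 9.37%) and 0 in the other 4 comparisons. Without the shallow libraries, 6 of the 8 were at that p in F3 P4, all lower in TBT, beside 16.1% of all species, and in F1 P5 there were 3 of the 8 with the same total in every library (beside 5.24%). Without TBT 7 and 8, 1 of the 8 was at that p in F1 P6, lower in TBT, beside 4.56%. RLTR44-int differed between TBT and DMSO by −0.02 ± 0.08 in F1 P4, 0.35 ± 0.13 in F1 P5 (SE; limma adjusted p = 0.897), 0.01 ± 0.23 in F1 P6, and in F3 by −0.32 ± 0.25 in P4, −0.75 ± 0.47 in P5 and 0.10 ± 0.08 in P6. In F1 P6 the value was −0.26 without TBT 7 and 8. Without the shallow F3 libraries it was −0.41 in P4 (limma adjusted p = 0.299) and −0.33 in P5 (adjusted p = 0.715).

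RLTR44-int outside genes in F1 P5, where the unadjusted difference was seen, had 329, 296, 365 and 258 CPM in DMSO and a lowest, median and highest value of 321, 409 and 649 in TBT. The groups overlapped, and the difference was 0.50 ± 0.21 (SE; limma adjusted p = 0.364). In F1 P4 the difference outside genes had the other sign, −0.21 ± 0.19. The test of whether the TBT effect differed between P5 and P4 gave 0.37 ± 0.16 for RLTR44-int over all loci in F1 (limma adjusted p = 0.997) and −0.43 ± 0.50 in F3, and it called 0 of the 8 totals in either generation, beside 0% of all species in F1 and 0% in F3.

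RLTR45-int totals differed between TBT and DMSO by 0.10, 0.12, 0.29 ± 0.14, 0.15, −0.51 and 0.06 in the same order of populations. The F1 P6 difference was 0.087 without TBT 7 and 8, and the F3 P4 and P5 differences were 0.14 and −0.19 without the shallow libraries. RLTR44E was the other total at an unadjusted p under 0.05, by 0.16 ± 0.07 in F3 P6 (limma adjusted p = 0.469). The remaining differences of the 6 LTR species ranged from −0.02 to 0.17 in F1 P4, 0.01 to 0.24 in F1 P5, −0.14 to 0.20 in F1 P6, −0.42 to −0.13 in F3 P4, −0.49 to −0.25 in F3 P5 and −0.15 to 0.17 in F3 P6.

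**Figure D5:**
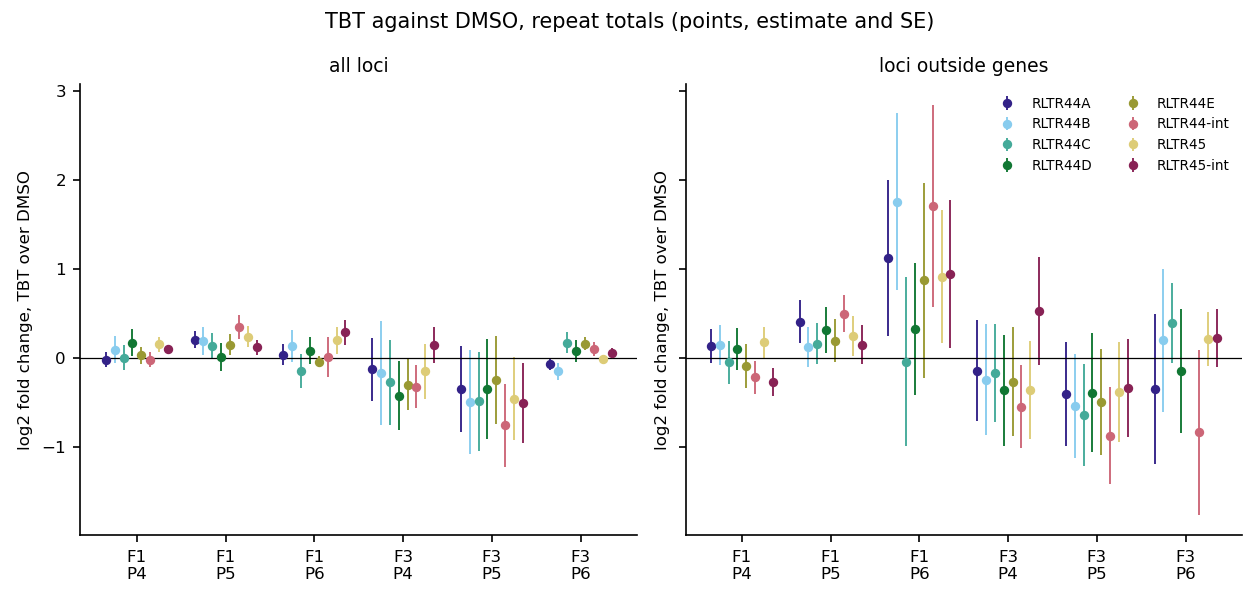
Log2 difference between TBT and DMSO for the 8 species totals in F1 and F3 P4, P5 and P6, over all loci (left) and loci outside genes (right), as points coloured by species with bars for the standard error. Over all loci no total passed the adjusted threshold, and RLTR44-int lies at 0.35 in F1 P5 and at −0.75 in F3 P5.

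The locus with the lowest p in each population shows what stood behind these counts. In F1 P5 it was RLTR44-int near Chd1l (chr3:97516428-97518999, plus strand), with 2.63, 2.10, 0 and 4.04 CPM in DMSO and a lowest, median and highest value of 3.98, 13.7 and 26.5 in TBT. A single TBT library reached down to the DMSO values, and the difference was 2.97 ± 0.60 (SE; limma adjusted p = 0.1316), which passed without DMSO 48-4 (adjusted p = 0.0401). In F3 P5 the same locus ranged from 5.12 to 23.6 CPM in DMSO and from 0 to 20.2 in TBT, so the groups overlapped there. In F1 P4 the lowest p was at RLTR44-int near Gm6592 (chrX:8852989-8853245), with 2.58, 2.40, 1.62, 5.67 and 2.06 CPM in DMSO and 0 to 1.499 in TBT (−1.93 ± 0.57, limma adjusted p = 0.612).

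In F3 P6 a pair of RLTR45-int fragments of 165 bases each, over exons of 1700030F04Rik and Gm7292, moved together. The one at chr6:117716343-117716507 had 19.6, 17.3, 15.1 and 11.6 CPM in DMSO and 25.7, 25.5, 21.7, 22.6 and 24.8 in TBT (0.61 ± 0.14, limma adjusted p = 0.1792). The one at chr6:117716686-117716850 had 84.3, 99.1, 85.8 and 80.0 in DMSO and 108, 120, 110, 105 and 119 in TBT (0.37 ± 0.09, limma adjusted p = 0.2009). All TBT libraries lay above all DMSO libraries at both, and in F1 P6 the second had the lowest p too (0.45 ± 0.15, limma adjusted p = 0.9988), though the groups overlapped, at 47.8 to 80.3 CPM in DMSO and 67.8 to 112 in TBT. The other 45 LTR loci of 1700030F04Rik had at most 0.223 CPM in F1 P6 and 0 in F3 P6. These fragments lie in exons of 2 overlapping genes on opposite strands, and with an unstranded kit the element cannot be told apart from either.

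In the remaining F3 populations the loci were RLTR45 LTRs with low signal. RLTR45 over an exon of 4933400C23Rik (chr9:92749057-92749555) had 8.48, 7.82, 10.1 and 4.44 CPM in DMSO and 0, 0.663, 5.63, 1.86 and 0 in TBT of F3 P4 (−3.04 ± 1.15, limma adjusted p = 0.8701). RLTR45 near Tmem167-ps3 (chr7:14014244-14014641) had 0, 0, 0 and 2.08 in DMSO and 21.1, 3.93, 1.28, 11.6 and 3.52 in TBT of F3 P5 (3.55 ± 1.36, limma adjusted p = 0.9999). In both the TBT library with the most extreme value was a shallow one (5 and 9 in P4, 5 in P5), and the groups overlapped in both, with or without the shallow libraries.

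DNA captured by the MBD protein was counted in windows of 100 bases, and the tables hold 701493 to 1913353 counts per library in F1 and 1105120 to 1556376 in F3. The captured DNA was from P6. In F1, 131 windows lay on 111 RLTR44 and RLTR45 loci, and in F3 132 on 110, so most of the 4466 loci had none. The windows took 1910 ± 88.04 CPM in DMSO-F1 (SD, n = 3) and 1867 ± 118 in TBT-F1 (n = 4), and 1705 ± 93.1 in DMSO-F3 (n = 5) and 1811 ± 209 in TBT-F3 (n = 7), and both pairs of groups overlapped.

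No window passed the edgeR quasi-likelihood test. In F1 72 windows were tested and 0 called, beside 0.0318% of all windows, and in F3 88 were tested and 0 called, beside 0%. At an unadjusted p under 0.05 there were 3 in F1, all lower in TBT, and 7 in F3, 5 of them higher, which is 4.17% and 7.95% of those tested beside 5.05% and 5.16% of all windows, and DESeq2 called 0 in both. The median log2 difference was −0.01 in F1 and 0.13 in F3, against −0.00 and 0.00 over all windows. RLTR45 windows were higher in TBT at 17 of 23 in F1 (median 0.11) and 32 of 43 in F3 (median 0.14), RLTR44-int windows at 6 of 15 and 10 of 19, RLTR45-int windows at 6 of 17 and 14 of 22, and windows on the RLTR44 LTRs (RLTR44A to RLTR44E) at 6 of 20 and 9 of 9. Over the RLTR44 and RLTR45 windows together 34 of 72 (47.2%) and 60 of 88 (68.2%) were higher in TBT, beside 50% and 50.6% of all tested windows, and these signs were not tested.

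The windows with the most counts in F1 lay side by side on RLTR44-int in an intron of Dock2, a regulator of Rac in blood cells. The one with the lowest p (chr11:34545101-34545200) had 96, 75 and 93 counts in DMSO and 111, 120, 90 and 122 in TBT, which is 103 ± 3.35 and 77.5 ± 16.5 CPM (SD; −0.47 on the log2 scale, edgeR adjusted p = 0.737). Its neighbours at chr11:34544901-34545000 (1606 counts over all libraries) and chr11:34545001-34545100 (1003) differed by −0.32 and −0.33. In F3 the lowest p was on RLTR45 near Gm14370 (chrX:5112501-5112600), at 8.98 ± 2.29 CPM in DMSO (SD, n = 5) and 13.3 ± 4.02 in TBT (n = 7), a log2 difference of 0.56 (edgeR adjusted p = 0.938). The RLTR45 windows with the most counts in F3, near Gm5373 (chr8:71819801-71819900) and Gm14295 (chr2:176789001-176789100), differed by 0.18 and 0.11.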

How the data were processed

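RNA of 62 libraries was made with an oligo-dT, unstranded SMART-seq kit. Per the submitters' processing notes and the methods, reads were trimmed with Trim Galore, mapped with STAR to mm10 and counted over RepeatMasker LTR loci with a modified ERVmap; the treatment of reads that map to several copies is not given in the sources used here. The authors deposited a signal per locus, CPM scaled by TMM with edgeR, in 4 tables (F1 and F3, germline and somatic). Every value was a whole multiple of the value of 1 read (tolerance 0.01), so whole reads were recovered at 100% of values. The MBD data are the deposited raw counts in windows of 100 bases, which cover a part of the genome. How the study chose these windows is not given in the sources used here.

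Loci were compared on log2(CPM + the value of 1 read) with limma 3.58.1 (trend) among loci with a mean of at least 5 reads, and summed per species, with p-values adjusted by Benjamini-Hochberg over all loci or all species and called under 0.05. Fold changes on this scale understate changes of low loci. MBD windows were tested with edgeR 4.0.16 (quasi-likelihood, TMM) and, as an alternative, DESeq2 1.42.0. Comparisons were made only within a table. Place was read from the GENCODE annotation of GRCm38, and sequence from that genome. A floor of 3 reads covers counting error only. Scripts were tested on simulated data. Alternatives were other pseudocounts, filters and scalings, loci outside genes only, edgeR on recovered reads (quasi-likelihood test, and the likelihood ratio test that the methods name), a replicate block, and leaving out each library, the shallow F3 libraries and F1 P6 TBT 7 and 8.

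Named were all 8 species, the loci with the highest level per population (over all and outside genes), the lowest p per exposure comparison, the 3 largest rises and falls between P4 and P5 in DMSO without overlap, and for MBD the lowest p and 2 highest counts. The loci followed within elements (A030012G06Rik, 1500015O10Rik) are among these. The members, marker lists and comparison species were chosen with earlier results of these data known.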

Additional observations from a re-analysis of the deposited data

Results flagged for a closer look

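Values that stood far from the rest of their group, by Dixon's gap test at the 95% level, were found in 3 of 99 groups tested, and chance alone marks about 1 in 20. RLTR44-int over all loci in F3 P4 TBT 9 had 538.8 CPM, while the other 4 libraries of that group had 304.7 to 365.5. RLTR44-int outside genes in F3 P5 TBT 9 had 1002 CPM, while the other 4 had 412.6 to 522.2. RLTR45-int over all loci in F1 P5 DMSO 48-4 had 501.6 CPM, below the 550.4 to 556.9 of the other 3. F3 P4 TBT 9 is among the shallow libraries, and its part in the first value was not tested.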

How the results depend on the processing

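The RLTR44-int total was higher in P5 under each of the 28 to 32 alternatives run per comparison, in both exposures and generations. The RLTR45-int total passed in F3 DMSO with the same total in every library (1.72), outside genes, without the shallow libraries (1.15) and with the likelihood ratio test (1.34), and in F3 TBT outside genes. Giving every library the same total moved the median of all species between P4 and P5 from −0.07 to 0.06 (F1 DMSO), −0.07 to 0.10 (F1 TBT) and −0.29 to 0.16 (F3 DMSO), and the split of all species from 87 higher and 146 lower to 200 and 67 in F1 DMSO and from 138 and 248 to 301 and 108 in F1 TBT.

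Counts of called loci between TBT and DMSO moved in F1 P5 to 28 without a filter (1.04%, beside 0.202% of all loci) and 10 with the likelihood ratio test (0.317% of all loci), in F3 P5 to 22 (3.15%) and in F3 P6 to 2 (0.338%) with the same test, and leaving out a library gave 0 to 2 in F1 P5, the latter beside 0.0498%. Between P5 and P4, F1 DMSO gave 34 of 105 loci and F1 TBT 50 at a mean of at least 20 reads (32.4% and 47.6%, beside 21.4% and 47.2% of all loci), and F1 TBT 290 of 2802 without a filter (10.3%, beside 6.24%). F1 DMSO gave 52 to 84 when a library was left out (15.1% and 24.3%, beside 9.6% and 12.9%) and 8 species totals outside genes (75.9% of all species). F3 DMSO gave 0 with a pseudocount of 0.25 reads, no filter or the quasi-likelihood test (0% of all loci in each), 9 with the same total (0.0749%), 11 with a pseudocount of 4 reads (0.163%), 34 without shallow libraries (5.7% of those tested, beside 1.49%), 87 with the likelihood ratio test (14.4%, beside 4.98%) and 0 to 19 with a library left out (0% and 0.495%). It gave 2 totals with the same total (10.9% of all species), outside genes (33.7%), without shallow libraries (24.1%) and with the likelihood ratio test (2.57%), or 0 to 2 with a library left out (0.452% and 5.73%). F3 TBT gave 0 with no filter or the quasi-likelihood test (0%), 3 without shallow libraries (0.0203%), 43 with the likelihood ratio test (7.12% of those tested, beside 1.16%) and 0 to 10 with a library left out (0% and 0.176%), and 2 totals outside genes (17.2%) or 0 to 1 with a library left out (0.302% and 3.32%). The cause of these changes was not tested beyond what each setting removes.

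Outside genes RLTR44E between P5 and P4 in F1 DMSO turned from −0.08 to 0.74 and passed (limma adjusted p = 0.0128), the only 1 of 131 turned values over the 8 totals and all settings that passed. Among the internal regions and named loci, signs turned for differences that did not pass: RLTR44-int between TBT and DMSO in F1 P4 (−0.0677 to 0.0217 with a library left out), F1 P6 (−0.0124 with the same total, −0.2626 without TBT 7 and 8, −0.1349 to 0.109 with a library left out), F3 P4 (0.0877, same total) and F3 P6 (−0.8336 outside genes), its F3 interaction (0.0704 without shallow libraries), RLTR45-int in F1 P4 (−0.2675 outside genes), its F1 interaction (−0.0113 to 0.0756), and RLTR45 in Rnf180 in F1 TBT (0.093, same total, and −0.1796 to 0.0317). Same-numbered P4 and P5 libraries had correlations of −0.20 to 0.58, and 13 of 20 correlated best with their own number. As not every pair was above 0.1 and the labels do not say what a number marks, the numbers were not taken as a pairing. With the replicate block, F1 gave 102 called loci in DMSO (84 higher in P5, 18 lower, beside 9.16% and 11.4% of all loci) and 154 in TBT (133 and 21, beside 15.8% and 20.6%), F3 gave 17 in DMSO and 2 in TBT, all higher (beside 0.321% and 0.0551%), and the RLTR44-int differences were 1.17, 1.57, 1.93 and 1.49.

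Depth limits single loci: a mean of 5 reads was needed, and of the 4466 RLTR44 and RLTR45 loci 663 reached it in the F3 P5 comparison of exposures with all libraries and 738 without the shallow ones.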
